A study of Saccharomyces cerevisiae with 9 samples.

Results

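Polyadenylated RNA of the wildtype diploid, the parent of the sam1Δ/sam1Δ and sam2Δ/sam2Δ strains of the study, is described here on its own. The members are the 3 libraries whose table columns carry the wildtype name, out of 9 libraries in the series, and all 7126 genic regions of the table were read for them. The strain is a MATa/α diploid of the W303 background of the budding yeast Saccharomyces cerevisiae, and it keeps both copies of SAM1 and SAM2. By the study's strain list it is homozygous for ura3-52, for ade2-101, for leu2-3, for trp1-Δ1 and for the deletion his3-Δ200, it is heterozygous as can1-100/CAN1 and lys2-801/LYS2, and it carries 2 copies of a chromosome fragment that holds TRP1 (as ura3::TRP1), SUP11, CEN4 and D8B. Cells were grown overnight in synthetic complete (SC) medium at 30 °C to an OD600 of 0.5 to 0.6, which the labels call mid-exponential phase. The labels call the libraries replicates 1, 2 and 3, and they are called cultures 1 to 3 below. No source used here says whether they came from separate colonies or days, so any spread between them may be technical in part.

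Yeast growing on plentiful glucose ferments it to ethanol, and spends much of its transcription on ribosomes and on the enzymes of glycolysis. When glucose or another nutrient runs low, ribosome production is turned down and genes of stress protection, reserve carbohydrates and respiration are turned up. Many of these genes come as paralog pairs left by an ancient genome duplication, and members of a pair are often used under different conditions. SAM1 and SAM2 are such a pair: both encode S-adenosylmethionine (AdoMet) synthetase, which makes the methyl donor of the cell from methionine and ATP.

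Values are signal, the estimated reads of a gene after the authors scaled each library. Signal summed to 11.9, 11.3 and 11 M in cultures 1, 2 and 3, resting on about 18.2, 9.31 and 18.2 M reads. Culture 1 stood apart from the other cultures. Across the 5993 genic regions that reached a signal of 10 in every wildtype library, the log2 values of cultures 2 and 3 had a Pearson correlation of 0.99, against 0.897 and 0.917 for culture 1 with cultures 2 and 3. These correlations are across genes, which are not replicates. Genes are therefore described by their values in each culture, in the order 1, 2 and 3. A bulk library cannot tell more RNA per cell from more cells that hold the RNA.

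A total of 5993 genic regions, 84.1% of the table, had a signal of at least 10 in all 3 cultures, and 546 were listed at 0 in all 3. Of 6007 protein-coding genes found in the reference annotation, 5590 passed that minimum and 128 were listed at 0. Sequence that occurs more than once in the genome was close to uncounted: of 107 genes without any 75-base stretch of their own, 100 were listed at 0, against 51 of 5626 genes whose every 75-base stretch occurs once. A value of 0 for a repeated gene, such as the ribosomal RNA genes or the α genes of the mating-type loci, therefore says nothing about its expression. The median gene past the minimum had a mean signal of 623, or 522 per kb of exon.

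The signal was concentrated in few genes. The 10 leading genes of each culture held 8.05, 10.4 and 9.26% of its signal, and 318, 303 and 328 genes made up 50% of it. Of the 100 leading genes, cultures 2 and 3 shared 85, cultures 1 and 2 shared 49, and 47 were among the leading 100 in all 3.

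HSP30, which encodes a plasma membrane heat shock protein known to restrain the proton pump Pma1, had the highest mean signal and also the highest mean signal per kb. It had a signal of 67481, 312226 and 226126 in cultures 1, 2 and 3, which is 0.569, 2.77 and 2.06% of all signal. The gene (YCR021C) lies on chromosome III at 156109 to 157107 of the minus strand in the R64-1-1 assembly, as a single exon. OLE1, the fatty acid desaturase gene, followed with 241918, 122805 and 158245, and it was the leading gene of culture 1. SED1, a cell wall glycoprotein gene, was next with 142299, 138497 and 138107, so its 3 values lay within a log2 SD of 0.02. BGL2, a glucan-modifying enzyme of the wall, was as even, with 60720, 61895 and 62324. Both wall genes kept their level while HSP30 was higher in cultures 2 and 3 than in culture 1.

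The other leading genes fell on either side in the same way. FBA1, the aldolase gene of glycolysis, had 59997, 105310 and 98491. TDH1, which encodes glyceraldehyde-3-phosphate dehydrogenase, had 47791, 84818 and 68472, and TDH3, its paralog, 27303, 90879 and 73462. HXK1, a hexokinase gene that shares its locus with another region, had 18124, 100890 and 76987, and HSP104, the gene of the disaggregase that rescues clumped proteins, had 14848, 75971 and 62216. YEF3, the gene of translation elongation factor 3, went the other way with 103776, 34850 and 40025. Per kb of exon the leading genes after HSP30 were SED1, OLE1, TMA10, which encodes a small ribosome-associated protein, and HYP2, which encodes the translation factor eIF5A and shares its locus with other regions. They were followed by CCW12, AHP1, FBA1, RPS31 and CWP2, of which CCW12 and CWP2 encode wall mannoproteins and AHP1 a peroxiredoxin. HYP2 had 81144, 19179 and 38642, AHP1 34979, 48514 and 49891 and CWP2 24846, 19538 and 17811. TMA10 had 10488, 35801 and 30740, and CCW12 had 50592, 27250 and 32993.

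**Figure D1:**
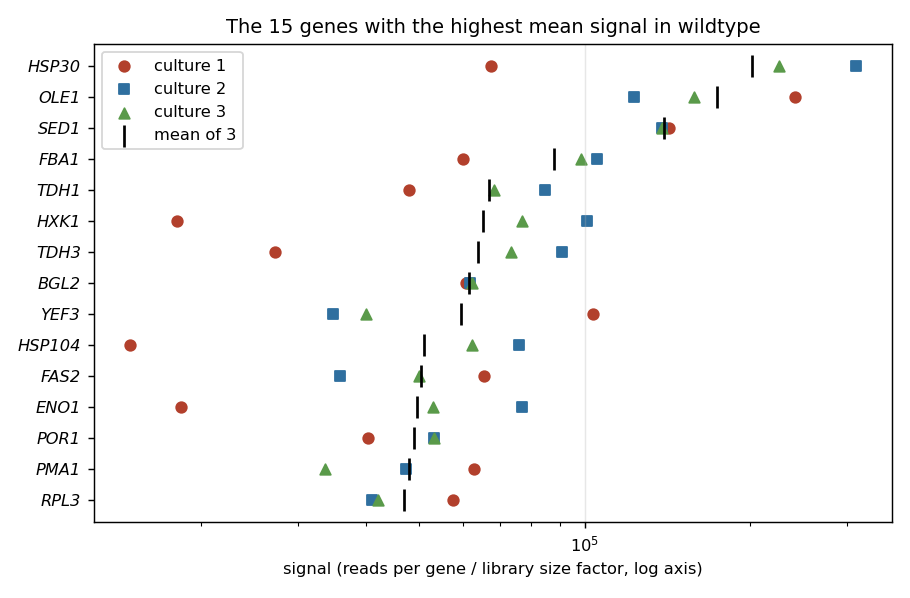
Signal on a log axis of the 15 genes with the highest mean signal, 1 point per culture, with a bar at the mean of 3. HSP30 leads with a mean of 201944, the 3 points of SED1 and BGL2 lie on top of each other, and culture 1 lies apart from cultures 2 and 3 for HXK1, TDH3, HSP104, ENO1 and YEF3.

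Grouped by function, ribosomal proteins held the largest mean share of signal among the 46 gene lists used, 8.46 ± 2.13% (SD, n = 3) over 138 genes. The list was taken by gene symbol and so holds RPP1, a subunit of RNase P and not of the ribosome, without which the share was 8.45%. The share was 10.7% in culture 1 and 6.51 and 8.13% in cultures 2 and 3. Since these genes are short, their share of signal per kb was larger, 16.6 ± 3.96%. The 25 genes of glycolysis and fermentation held 2.87, 7.71 and 6.43%, and the 31 heat shock and chaperone genes, HSP30 among them, 2.54, 7.66 and 6.32%. In culture 2 both lists were above the ribosomal proteins, the chaperone list only with HSP30, which alone held 2.77% there. Cell wall genes held 4.28, 3.73 and 3.82% over 37 genes. Single members were less even than this sum, with log2 differences of culture 2 from culture 1 between -2.40 and 2.42. The 10 genes of fatty acid synthesis, with OLE1 in the lead, held 3.94, 2.10 and 2.82%. Ergosterol synthesis genes held 3.95, 0.788 and 1.60% over 25 genes.

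**Figure D2:**
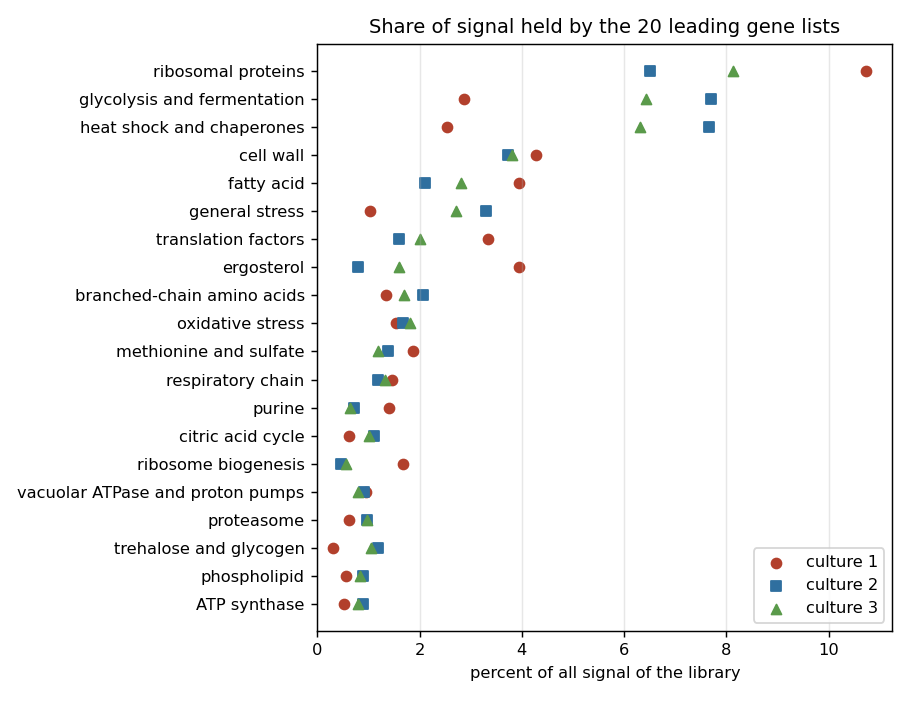
Percent of all signal of a library held by the 20 gene lists with the highest mean share, 1 point per culture. Ribosomal proteins have the highest mean share, with 10.7, 6.51 and 8.13%. In culture 2 glycolysis (7.71%) and chaperones (7.66%, of which HSP30 alone is 2.77%) lie above them. For glycolysis, chaperones, general stress and ergosterol culture 1 lies on one side of cultures 2 and 3.

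The 3 cultures are replicates of a single group, so differences between them were described and not tested. Between cultures 1 and 2, 1460 of 5993 genes differed 2-fold or more (24.4%), 640 higher in culture 2 (10.7%) and 820 lower (13.7%). Between cultures 1 and 3, 1259 differed (21%), 554 higher in culture 3 (9.24%) and 705 lower (11.8%). Between cultures 2 and 3 only 58 did (0.968%), 32 higher in culture 3 (0.534%) and 26 lower (0.434%). The SD of the log2 difference over all these genes was 0.94, 0.85 and 0.29 for culture 2 minus 1, 3 minus 1 and 3 minus 2. Counting error alone would give a median gene an SD of 0.08, 0.07 and 0.08. Culture 1 was as deeply sequenced as culture 3. Scaling by the library total in place of the authors' size factors moved all differences from culture 1 by 0.07 and 0.11 upwards on the log2 scale in cultures 2 and 3, and the lists below are described relative to shifts of that size. With that scaling 50% of the 1487 genes past 2-fold in culture 2 and 53.9% of the 1260 in culture 3 were higher, against 43.8 and 44.0% without it, and 66.0% against 55.2% between cultures 2 and 3. Cultures 2 and 3 differed by more than counting error for 46.5% of genes at the 95% limit.

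Chaperone genes were higher in cultures 2 and 3. Of 31, 21 were at least 2-fold higher and 3 at least 2-fold lower in culture 2 than in culture 1, beside 10.7% and 13.7% of all genes, and the median log2 difference was 1.72. In culture 3 it was 1.42, with 20 at least 2-fold higher and 1 at least 2-fold lower, beside 9.24 and 11.8% of all genes. HSP26, a small heat shock protein that holds unfolded proteins, had 12459, 61991 and 47586. HSP82, an HSP90 gene, had 8588, 46779 and 35153. HSP42, another small heat shock protein gene, had 6700, 37501 and 33048, and BTN2, a protein sorting and aggregate factor gene, 1786, 11310 and 9266. For each of these the values of cultures 2 and 3 were both more than 2-fold above that of culture 1. SSB1 and SSB2, chaperones that bind nascent chains on the ribosome, lay the other way, with 14172, 4126 and 4624 for SSB1, which shares its locus, and 29162, 12217 and 16945 for SSB2.

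Reserve carbohydrate genes were shifted furthest upwards among the lists described here. All 17 genes of trehalose and glycogen metabolism were higher in cultures 2 and 3 than in culture 1, 13 and 14 of them by 2-fold or more, beside 10.7 and 9.24% of all genes. The median log2 differences were 2.21 and 2.03. GDB1, the glycogen debranching enzyme gene, had 1076, 9948 and 8720. GSY1, a glycogen synthase gene, had 235, 2114 and 2100, and PGM2, which feeds glucose phosphates into glycogen, 2616, 17131 and 13494. NTH1, the neutral trehalase gene, was the exception in size with 11286, 14753 and 14903. Among 32 general stress genes, 19 were at least 2-fold higher and 2 at least 2-fold lower in culture 2, beside 10.7 and 13.7% of all genes. PNC1, a nicotinamidase gene, had 4232, 17629 and 15716, and ALD3, an aldehyde dehydrogenase gene, 392, 3856 and 3028. RGI1, a respiratory growth gene that shares its locus, had 1175, 10886 and 8729. YGP1 and SPI1, cell wall proteins of stationary cells, were closer together, with 24874, 46478 and 36868 and 14972, 32505 and 25591. These stress genes held 1.03, 3.30 and 2.71% of signal in cells labelled mid-exponential.

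Glycolytic genes were higher as well. Of 25, 14 were at least 2-fold higher in culture 2 and 13 in culture 3, beside 10.7 and 9.24% of all genes, 1 was at least 2-fold lower in each, beside 13.7 and 11.8%, and the medians were 1.37 and 1.07. The genes with the largest spread were minor members: GPM2, a phosphoglycerate mutase homologue, had 211, 2447 and 1588, and ADH5, an alcohol dehydrogenase gene, 757, 5428 and 3258. PDC6, a minor pyruvate decarboxylase gene, was the member that was lower, with 496, 124 and 92.9. The major gene PDC1 stayed near the same level with 34974, 37138 and 48784. PFK1 and PFK2, the phosphofructokinase subunits, also moved little, with 11157, 12075 and 10244 for PFK1.

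Ribosome biogenesis was the list with the most uniform difference. All 62 detected genes were lower in cultures 2 and 3 than in culture 1, 60 and 58 of them by 2-fold or more, beside 13.7 and 11.8% of all genes. The medians were -2.04 and -1.74. NSR1, a nucleolar protein of pre-rRNA processing that shares its locus, had 7154, 821 and 926. DBP2, an RNA helicase gene, had 7859, 984 and 1459. CBF5, the pseudouridine synthase of snoRNA particles, led the list with 10012, 3131 and 3566, followed by NOP2 with 8762, 3121 and 3754 and NOG1 with 9182, 1841 and 2101. For each of these, culture 1 was more than 2-fold above both other cultures, and cultures 2 and 3 lay close together.

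Ribosomal protein genes showed a smaller difference the same way. Of 137 detected, 135 were lower in culture 2, 41 of them by 2-fold or more (beside 13.7% of all genes), with a median of -0.90. In culture 3, 124 were lower, with a median of -0.57, but the 9 that were lower by 2-fold or more are a smaller share than the 11.8% of all genes. RPL3 had 57650, 40984 and 42024, and RPS31, which is made as a fusion with ubiquitin, 35454, 31596 and 40964. RPL8A had the largest spread of the list, with 9731, 2212 and 2735. All 36 translation factor genes were lower in culture 2 and 34 in culture 3. TEF2, which encodes elongation factor EF-1α and has few 75-base stretches of its own, stayed level at 15748, 15338 and 15990, and STM1, a ribosome preservation factor gene, had 14849, 11569 and 14206.

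Ergosterol is the main sterol of fungal membranes. Culture 3 lay between the other cultures for its genes. Of 25 genes, 21 were at least 2-fold lower in culture 2 than in culture 1 and 15 in culture 3, beside 13.7 and 11.8% of all genes. The medians were -2.09 and -1.18. Against culture 2, 11 were at least 2-fold higher in culture 3, beside 0.534% of all genes. ERG11, the lanosterol demethylase that azole drugs inhibit, had 54257, 5848 and 13029. ERG1, squalene epoxidase, had 53217, 5295 and 10183, ERG25, a sterol methyl oxidase, 44625, 6006 and 15028, and ERG2, a sterol isomerase, 10564, 869 and 2703. ERG5, a sterol desaturase, had the largest difference upwards from culture 2 to culture 3 among genes with a mean of at least 50, with 26141, 3038 and 9967. The fatty acid synthase genes FAS1 and FAS2 shared the order at smaller size, with 60976, 31170 and 40194 for FAS1. ACC1, acetyl-CoA carboxylase, had 46814, 24670 and 32303.

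**Figure D3:**
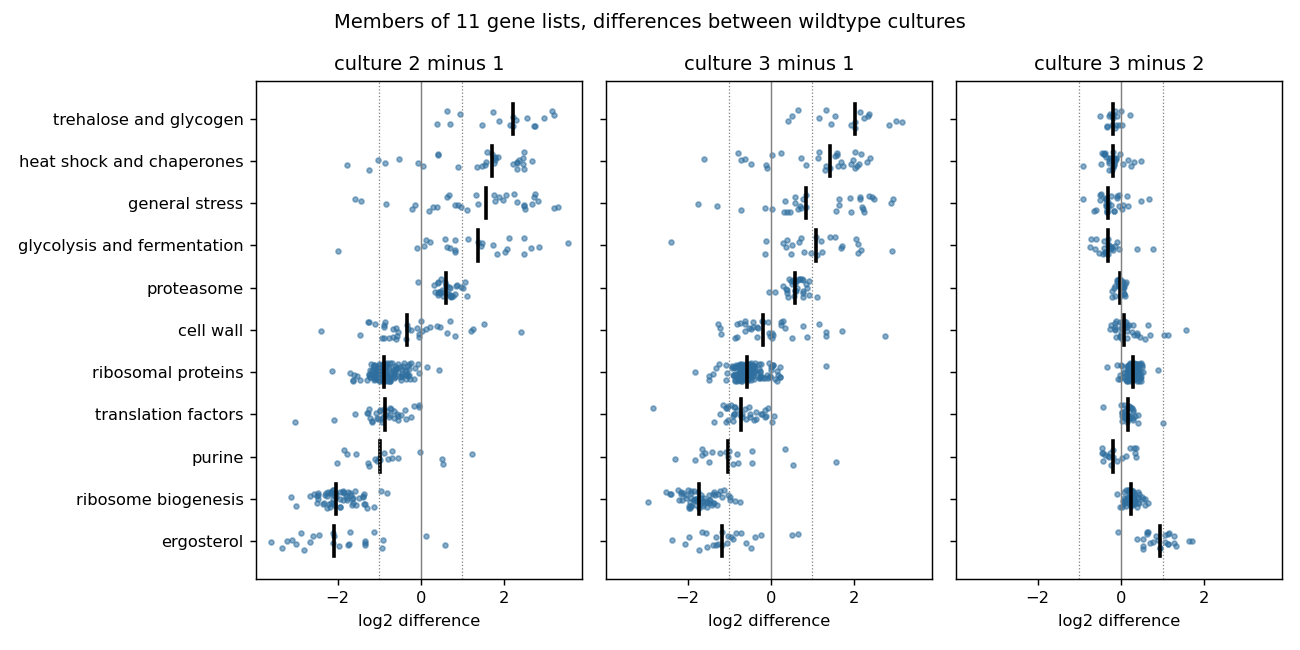
Log2 difference in signal for each detected member of 11 gene lists, with a bar at the list median, for culture 2 minus 1, 3 minus 1 and 3 minus 2. Dotted lines mark 2-fold. Trehalose and glycogen genes have medians of 2.21, 2.03 and -0.18, ribosome biogenesis genes -2.04, -1.74 and 0.25, and ergosterol genes -2.09, -1.18 and 0.94.

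Transport and nutrient regulons added single genes with large differences. PHO84, the high-affinity phosphate transporter gene, had 7642, 718 and 796, and PHO89, a sodium-phosphate transporter gene, 993, 118 and 86.8. PUT1, proline oxidase, had 6635, 566 and 591, PUT4, the proline permease, 3396, 316 and 266, and GAP1, the general amino acid permease, 6274, 832 and 1080. The iron uptake genes FET3 and FTR1 had 13899, 2581 and 2364 and 2741, 488 and 623. ZPS1, a zinc-regulated wall protein gene, had 5105, 308 and 1000. Over whole lists, 12 of 23 detected genes of nitrogen catabolite repression and 7 of 17 of the phosphate regulon were at least 2-fold lower in culture 2 than in culture 1, beside 13.7% of all genes. In the iron regulon 6 of 27 were lower, nearer that share, and 3 were at least 2-fold higher, close to the 10.7% of all genes. CTH1, an mRNA decay factor of iron shortage, was among these 3, with 908, 2070 and 1835. Among glucose-repressed genes the members split: SUC2, invertase, had 1073, 6213 and 5141, and JEN1, the lactate permease, 10190, 2337 and 2105. ALD4, a mitochondrial aldehyde dehydrogenase gene, and GUT2, a gene of glycerol use, differed less. They had 10791, 8973 and 7394 for ALD4 and 2743, 3316 and 3527 for GUT2.

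In other lists the members lay mostly within 2-fold. Of 33 proteasome genes 32 were higher in culture 2 and 32 in culture 3 than in culture 1, with medians of 0.61 and 0.58 on the log2 scale. By 2-fold or more 3 and 1 were higher, beside 10.7 and 9.24% of all genes. Their regulator RPN4 had 11422, 14210 and 12268. All 15 ATP synthase genes were higher in culture 2 and 14 in culture 3, none by 2-fold, led by ATP2 with 21153, 37594 and 32011. The respiratory chain list had medians of -0.08 and 0.03. ACT1, actin, often used as a reference gene, had 12319, 20905 and 22926. The genes with the smallest spread among those with a mean of at least 500 were YPP1, APN1, SPA2, MMP1 and CAJ1. YPP1, which acts in lipid kinase recruitment at the plasma membrane, had 706, 704 and 704, and APN1, a DNA repair endonuclease gene, 766, 768 and 766.

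Single genes outside these groups had the largest differences of all with a mean of at least 50. Lower in cultures 2 and 3 were YMR244W, an uncharacterized gene, with 1008, 36.4 and 51.2, GFD2 with 2933, 175 and 284, CYB5, cytochrome b5, which serves sterol and lipid enzymes, with 8499, 628 and 1793, and DHR2, an RNA helicase gene of ribosome assembly, with 436, 32.7 and 40.4. Higher were SAP4, a partner of the phosphatase Sit4, with 24.7, 379 and 298, RRT8, a spore wall gene, with 88.5, 907 and 904, EMI2, a hexokinase homologue, with 478, 4808 and 3636, and LDS2, another spore wall gene, with 39.0, 327 and 327. YOR186C-A, which shares its locus, had 20.2, 239 and 150. Between cultures 2 and 3 the leading genes with lower values in culture 3 included the biotin genes: VHT1, the biotin transporter, had 3065, 3937 and 1281 and BIO3, of biotin synthesis, 3327, 2161 and 868. FIT2, an iron-related wall mannoprotein, had 1270, 948 and 367, and YLR154W-F and YAL016C-A, which share their loci, had 76.4 and 118 in culture 2 and 25.9 and 46.4 in culture 3. Higher in culture 3 beside ERG5, ERG2 and ZPS1 were THI5, of thiamine synthesis, with 18.2 and 56.7 and little sequence of its own, and TIR1, a wall mannoprotein, with 52.1 and 157.

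Some of these lists held known upstream motifs more often than other genes, and some did not. Windows of 250 bases, upstream of the 100 bases next to the start codon, were read for 5987 protein-coding genes, and both strands were searched for fixed letters. The stress response element (STRE, AGGGG), bound by Msn2 and Msn4, stood in 20.1% of all windows, in 27 of 32 windows of general stress genes (84.4%) and in 15 of 17 of the trehalose and glycogen genes (88.2%). The PAC element (GATGAG) stood in 16% of all windows and in 44 of 62 of the ribosome biogenesis genes (71.0%), and the RRPE element (AAAATTTT) in 8.30% and in 49 of 62 (79.0%). A Rap1 motif, searched as 10 fixed letters, stood in 0.585% of all windows and in 13 of 138 of the ribosomal proteins (9.42%). A TATA motif, searched in 8 versions, stood in 33.8% of all windows and in 18 of 25 of the glycolysis list. It stood in 20 of 31 of the chaperone list and in 23 of 138 of the ribosomal proteins. The glycolysis list had STRE in 10 of 25 windows. By STRE, PAC and RRPE the other lists divided less, or not at all. The chaperone list had STRE and PAC in 10 of 31 windows each (32.3%), ribosomal proteins had PAC in 17 of 138 (12.3%) and RRPE in 11 (7.97%), and ergosterol genes had PAC in 0 of 25 and RRPE in 1. Of the genes with a window that were at least 2-fold higher in culture 2 than in culture 1, 247 of 589 had STRE (41.9%), against 96 of 762 of those lower (12.6%). PAC stood in 237 of those 762 (31.1%) and in 79 of the 589 (13.4%). The differences between cultures and these counts share the same genes, and a match of letters is a description and not a binding site.

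The windows of 5 genes named above or chosen after their values were seen (TSL1, a trehalose synthase subunit gene with a signal of 1222, 9512 and 8817) show how dense these letters can be. They are 250 bases each, 5′ to 3′ on the strand of the gene, from the R64 reference, and capitals mark STRE, PAC and RRPE on either strand, the reverse strand of STRE reading CCCCT and that of PAC reading CTCATC.
HSP30, chrIII:157208-157457, minus strand: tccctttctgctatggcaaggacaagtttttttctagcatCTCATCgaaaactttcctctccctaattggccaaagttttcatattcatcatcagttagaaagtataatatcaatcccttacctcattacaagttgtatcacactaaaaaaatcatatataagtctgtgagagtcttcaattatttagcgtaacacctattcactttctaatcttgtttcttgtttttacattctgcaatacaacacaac
HSP104, chrXII:88273-88522, plus strand: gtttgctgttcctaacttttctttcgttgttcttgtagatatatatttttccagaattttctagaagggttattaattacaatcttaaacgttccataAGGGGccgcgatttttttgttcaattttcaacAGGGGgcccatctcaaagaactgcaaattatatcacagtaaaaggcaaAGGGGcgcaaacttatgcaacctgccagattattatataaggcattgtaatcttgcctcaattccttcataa
TSL1, chrXIII:70274-70523, plus strand: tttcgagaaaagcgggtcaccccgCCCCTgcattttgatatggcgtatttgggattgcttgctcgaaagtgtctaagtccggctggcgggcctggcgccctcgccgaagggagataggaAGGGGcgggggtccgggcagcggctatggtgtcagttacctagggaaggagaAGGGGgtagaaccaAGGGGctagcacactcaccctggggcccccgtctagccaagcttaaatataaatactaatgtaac
NSR1, chrVII:807757-808006, minus strand: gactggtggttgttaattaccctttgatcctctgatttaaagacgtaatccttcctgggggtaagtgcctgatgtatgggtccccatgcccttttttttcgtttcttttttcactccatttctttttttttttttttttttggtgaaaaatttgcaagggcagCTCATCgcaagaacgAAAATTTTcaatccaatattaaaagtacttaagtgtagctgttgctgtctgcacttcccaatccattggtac
CBF5, chrXII:505784-506033, plus strand: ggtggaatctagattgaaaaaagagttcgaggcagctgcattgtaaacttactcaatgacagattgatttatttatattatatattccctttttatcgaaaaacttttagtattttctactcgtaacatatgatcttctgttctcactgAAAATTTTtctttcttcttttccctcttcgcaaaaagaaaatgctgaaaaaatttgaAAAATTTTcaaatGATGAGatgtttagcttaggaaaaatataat
The TSL1 window holds 4 STRE matches and the HSP104 window 3. The HSP30 window holds none and a single PAC match, although its values across the cultures lay like those of HSP104. NSR1 holds 1 PAC and 1 RRPE match and CBF5 1 PAC and 2 RRPE matches.

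SAM1 and SAM2 differed in level and in their spread. SAM2 had a signal of 39411, 17280 and 19627, a mean of 25439 ± 12156 (SD, n = 3) that ranked 48th, and 18454 without culture 1, ranked 70th. SAM1 had 17140, 6030 and 4589, a mean of 9253 ± 6868 that ranked 215th, but 5310 without culture 1, ranked 397th. SAM2 was the higher member in every culture, and culture 1 was the highest for both. Per kb of exon the log2 ratio of SAM2 to SAM1 was 1.19, 1.51 and 2.09, on average 1.60 (SE 0.21, adjusted p = 0.00381 by limma over 505 pairs), a 3.03-fold difference. SAM1 (YLR180W) lies on chromosome XII at 515262 to 516410 of the plus strand and SAM2 (YDR502C) on chromosome IV at 1453310 to 1454464 of the minus strand, each as a single exon, and all 75-base stretches of both genes occur once in the genome. Of the other genes of the methyl cycle, MET6, methionine synthase, had 61251, 36240 and 29141, and SAH1, which breaks down the S-adenosylhomocysteine that methylation leaves, 36738, 14676 and 20442. MET3, ATP sulfurylase, the first step of sulfate assimilation, had 712, 3559 and 1460, with culture 2 the highest, and MET28, a regulator of these genes, 3.25, 32.7 and 14.5. CYS4, which starts the way from homocysteine to cysteine, had 16072, 10099 and 8771. Of 33 detected genes of methionine and sulfate metabolism, 4 were at least 2-fold lower in culture 3 than in culture 2, beside 0.434% of all genes, and 27 were lower at any size.

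The letters CACGTG, bound by Cbf1, stood in 3.79% of all windows and in 15 of 34 windows of the methionine and sulfate list (44.1%). The windows of the pair are shown with CACGTG, STRE, PAC and RRPE in capitals, to the same rule as above.
SAM1, chrXII:514912-515161, plus strand: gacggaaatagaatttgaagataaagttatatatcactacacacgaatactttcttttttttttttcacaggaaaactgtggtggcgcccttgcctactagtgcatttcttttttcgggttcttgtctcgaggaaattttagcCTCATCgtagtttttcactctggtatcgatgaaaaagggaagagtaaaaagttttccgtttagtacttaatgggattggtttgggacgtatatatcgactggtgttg
SAM2, chrIV:1454565-1454814, minus strand: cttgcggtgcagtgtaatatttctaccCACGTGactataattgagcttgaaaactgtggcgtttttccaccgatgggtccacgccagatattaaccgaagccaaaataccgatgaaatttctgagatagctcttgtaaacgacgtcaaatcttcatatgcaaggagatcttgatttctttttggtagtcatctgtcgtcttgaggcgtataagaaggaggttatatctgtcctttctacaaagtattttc
The SAM2 window holds CACGTG once and none of the other 3 motifs, and the SAM1 window holds PAC once and no CACGTG.

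Across the genome the members of paralog pairs differed widely in how far apart they were. Pairs were taken as reciprocal best protein matches with at least 40% identity over at least 70% of both proteins, 535 in all, and 505 of them had a member with enough signal to test. Of these, 268 were called at an adjusted P of at most 0.05 and a ratio of at least 2-fold per kb (53.1%). The median ratio was 1.24 on the log2 scale, 217 pairs lay under 2-fold, 81 past 10-fold and 14 past 100-fold, and 399 kept their order in all 3 cultures. These counts include near-copies with little sequence of their own, for which no fold is given below. Among pairs of mostly unique sequence with both members alone at their locus, 193 were called, all of them among the 268. Without culture 1, 298 pairs were called, of which 260 were among the 268, and without culture 2 it was 226. Pairs of ribosomal proteins were closer, with 23 of 59 called (39.0%) and a median of 0.79. Some of their members share a locus and were listed low, such as RPL43A with 28.0, 26.7 and 26.5. Ratios of such members depend on how the locus was split. Pairs of at least 90% identity that are not ribosomal had a median of 1.24, with 28 of 58 called and 7 past 100-fold.

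**Figure D4:**
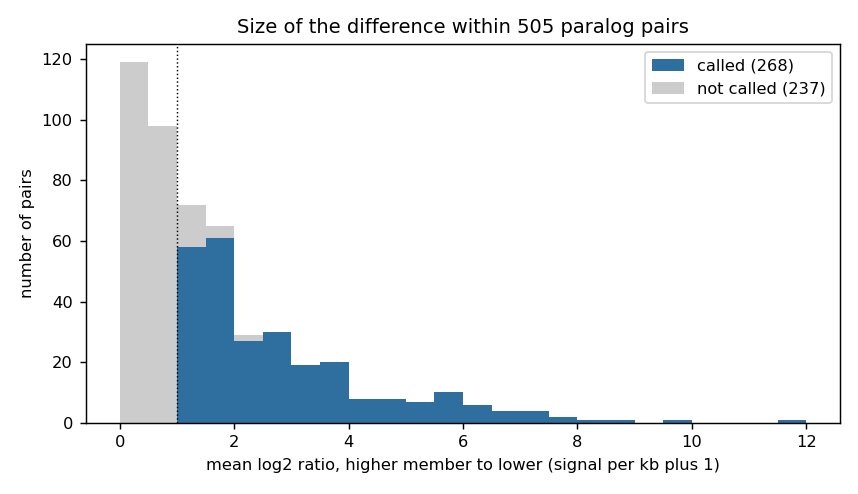
Number of paralog pairs by their mean log2 ratio of higher to lower member (signal per kb plus 1), for 268 called pairs and the other 237 of 505. The counts fall off from 0, with a tail of 14 pairs past 100-fold, and the dotted line marks 2-fold. The tail includes near-copies with little sequence of their own.

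The most unequal pairs with a mean of at least 50 in the higher member set a gene of high signal against a paralog of low signal. PET9, the major ADP/ATP carrier of mitochondria, had 15339, 11153 and 12129, and its paralog AAC3, known for use without oxygen, 11.1, 17 and 13.3, a log2 ratio of 9.73 (SE 0.27). POR1, mitochondrial porin, had 40313, 53259 and 53248 and POR2 218, 116 and 98.3. PMA1, the plasma membrane proton pump, had 62808, 47190 and 33714 and PMA2 868, 228 and 206. EGD1, of the nascent chain complex, was above BTT1 by 7.27 on the log2 scale, and LSO2 was above LSO1 by 7.50. UGP1 exceeded YHL012W by 7.42 and the small gene YDR524C-B exceeded YCL048W-A by 7.77, and UGP1 shares its locus. Without culture 1 these ratios were 8.17 and 7.18. The other pairs with the largest ratios set a gene with signal against a near-copy listed at or near 0: HXT7 and HXT6, HSP33 and HSP32, and VBA5 and VBA3, in which the lower member had at most 1.21 in any culture. Only 5% of HXT7 and HXT6 and none of HSP32 is sequence of its own, so no fold is given for these 3 pairs. At the other end PES4 and MIP6, RNR2 and RNR4, CDC10 and CDC12, RPL19A and RPL19B, and SNZ2 and SNZ3 had ratios of 0.01 to 0.03. RPL19A had 14817, 10765 and 12591 and RPL19B 17280, 9211 and 11987, a log2 ratio of 0.02 (SE 0.12).

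The hexose transporter pair shows what this table can and cannot separate. HXT7 and HXT6 differ at 3 of 1713 coding bases, all of them in the 90 coding bases shown here (positions 1600 to 1689 of each gene, R64 reference), where capitals in HXT6 mark bases that differ from HXT7.
HXT7, chrIV:1154240-1154329, minus strand: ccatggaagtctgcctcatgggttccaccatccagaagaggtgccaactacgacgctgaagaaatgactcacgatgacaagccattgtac
HXT6, chrIV:1159632-1159721, minus strand: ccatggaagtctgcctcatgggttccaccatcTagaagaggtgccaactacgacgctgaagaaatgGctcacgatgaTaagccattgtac
HXT7 was listed at 4278, 10167 and 10542 and HXT6 at 0.651, 0 and 1.21. Whether the W303 strain carries these HXT6 letters was not tested. The sum of both genes does not depend on how signal was split between them. Since repeated sequence was close to uncounted, that sum may still fall short of their joint level.

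Within most families of glycolysis a single member led. ENO1, enolase, had 18377, 77034 and 53040 and ENO2 3850, 21481 and 17183, so ENO1 was the higher by 2.25, 1.84 and 1.63 on the log2 scale (mean 1.91, SE 0.16, adjusted p = 0.00122 by limma). HXK1 was above HXK2, the hexokinase known for growth on glucose, by 2.87 (SE 0.36), with HXK2 at 4878, 8684 and 8468. PDC1 was above PDC5 by 6.30 and ADH1 above ADH2, the ethanol-consuming enzyme, by 6.95, with ADH2 at 405, 148 and 113. Without culture 1 the ratio of ADH1 to ADH2 was 7.98, and without culture 2 it was 6.35. CDC19, pyruvate kinase, was above PYK2 by 5.85 and shares its locus. GPM1 was above GPM2 by 5.64, and PGM2 above PGM1 by 4.30. Among the hexose transporters HXT3 had 18924, 27315 and 24430, HXT4 21034, 13948 and 10298, HXT2 1593, 2543 and 2368 and HXT1, known for high glucose, 185, 342 and 400. HXT4 was above HXT3 in culture 1 and below it in cultures 2 and 3.

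The TDH family holds near-equal proteins at unequal level. TDH1 and TDH3 were alike in cultures 2 and 3 and TDH1 was the higher in culture 1, while TDH2 had 3517, 15332 and 11342, below TDH3 by 2.74 (SE 0.11, adjusted p = 0.000273 by limma). TDH2 differs from TDH3 at 42 of 999 coding bases and TDH1 at 111, and 81.1% of TDH2 is sequence of its own, so the 3 genes can be told apart by most reads. The first 90 coding bases are shown, with capitals for bases that differ from TDH3.
TDH3, chrVII:883721-883810, minus strand: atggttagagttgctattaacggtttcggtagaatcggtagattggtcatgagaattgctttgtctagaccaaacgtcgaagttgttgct
TDH2, chrX:454592-454681, minus strand: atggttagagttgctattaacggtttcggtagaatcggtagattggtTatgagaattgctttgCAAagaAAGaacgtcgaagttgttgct
TDH1, chrX:338271-338360, plus strand: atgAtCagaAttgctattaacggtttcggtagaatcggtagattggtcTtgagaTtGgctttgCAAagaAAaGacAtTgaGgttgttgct
In this stretch TDH2 differs at 7 bases and TDH1 at 15.

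Outside glycolysis the order within families was as marked. LEU4 was above LEU9, the other α-isopropylmalate synthase of leucine synthesis, by 3.92. TRX2 was above TRX1, cytosolic thioredoxins, by 3.14, and BAT1 above BAT2, the mitochondrial and cytosolic branched-chain transaminases, by 2.79. HYP2 exceeded ANB1, the eIF5A gene known for low oxygen, by 6.74, with ANB1 at 1425, 173 and 198. SSA1 was above SSA2 by 1.20 and SSB2 above SSB1 by 1.49. Both ratios depend on how shared loci were split, since YDL228C on the other strand holds 52.5% of the signal of the SSB1 locus and YAL004W 21.5% of that of SSA1. With the sum of both strands SSB2 was above SSB1 by 0.02, 0.52 and 0.62 (mean 0.39), under 2-fold, and SSA1 above SSA2 by 1.55 on average. These chaperone genes have 47.8 to 63.7% sequence of their own. HSP82 was above its constitutive paralog HSC82 by 0.95 (SE 0.19), short of 2-fold, and was past it without culture 1 (1.15 on the log2 scale). Pairs with no call included PFK1 and PFK2 at 0.16 (SE 0.17), TEF2 and TEF1 at 0.35 (SE 0.24), EFT2 and EFT1 at 0.53 (SE 0.19) and LYS21 and LYS20 at 0.04 (SE 0.22). Only 11.3% of the TEF genes and 12.2% of the EFT genes is sequence of their own, which limits those ratios. With 3 libraries a ratio inside these errors does not show that the members are equal.

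**Figure D5:**
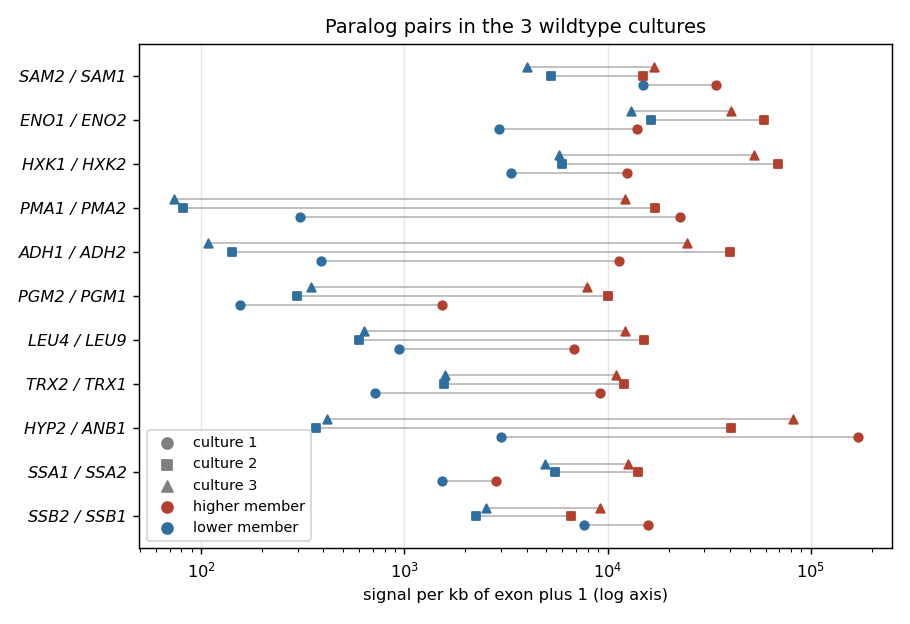
Signal per kb of exon plus 1 on a log axis for the members of 11 paralog pairs, joined by a line within each culture. SAM2 lies above SAM1 and ENO1 above ENO2 in every culture, and the points of PMA1 and PMA2, ADH1 and ADH2, and HYP2 and ANB1 lie farther apart than those of the other pairs shown.

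Some pairs had unlike ratios in the 3 cultures, and TKL1 and TKL2 were chosen after their values were seen. URA8 and URA7, CTP synthases, had ratios of -0.24, 3.72 and 3.17 on the log2 scale, with URA7 at 3169, 560 and 674. TKL1, transketolase, stood above TKL2 by 5.95, 2.48 and 3.51, with TKL1 at 20478, 7943 and 9717. HMG1, the main HMG-CoA reductase of sterol synthesis, stood above HMG2 by 4.13, 1.10 and 2.32. HTA1, histone H2A, stood above HTA2 by 4.87, 2.08 and 1.83, and HTA2 had 306, 1899 and 2417 while HTA1 stayed at 8929, 8047 and 8614. In each of these culture 1 had the ratio farthest from the others, and without it the mean ratios were 3.45 for URA8 to URA7, 2.99 for TKL1 to TKL2, 1.71 for HMG1 to HMG2 and 1.96 for HTA1 to HTA2, against 2.22, 3.98, 2.52 and 2.93 over all 3. Without culture 2 the ratios of the first 3 of these pairs were 1.47, 4.73 and 3.22.

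The markers of the strain and cell type were read in the same way. HIS3, labelled his3-Δ200, was listed at 0 in all 3 cultures, at a locus shared with other regions. URA3 had 10607, 14649 and 13896, LEU2 10979, 20567 and 13997, TRP1, which shares its locus, 2529, 4236 and 3376, ADE2 5300, 1789 and 1487, LYS2 1892, 2958 and 2563, and CAN1 2575, 1594 and 1317. The labelled mutant alleles of URA3, LEU2 and ADE2 thus have signal, which a gene total cannot separate from an intact copy. Haploid-specific genes, which the a1/α2 repressor shuts off in diploids, were low, with a median of the mean signal of 130 against 606 for protein-coding genes. Of 14, 11 passed the minimum, beside 84.1% of all genic regions, and the list held 0.02% of signal. GPA1, the G protein of pheromone response, had 151, 110 and 133, STE4 162, 167 and 200, FUS1 72.9, 145 and 113 and HO, the mating-type switching nuclease, 11.1, 8.48 and 16.9. RME1, a repressor of meiosis, had 157, 377 and 279, and FAR1 102, 230 and 259. The a-specific pheromone genes MFA1 and MFA2 had at most 15, STE2, the α-factor receptor, 75.5, 98.2 and 74.2, and the α-specific STE3 and MF(ALPHA)1 60.5, 65.5 and 48.2 and 56.6, 52.1 and 54.9. HMRA1, the a1 copy with sequence in the table, had 352, 538 and 455. Meiosis genes held 0.04%, led by SPS100 with 927, 589 and 722.

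Little signal was listed outside protein-coding genes and for the mitochondrial genome. The libraries were enriched for polyadenylated RNA, so a low value is no measure of an RNA without a poly-A tail. How far the enrichment lowered the values below was not tested. Of 299 tRNA genes 298 were listed at 0, as were the 12 ribosomal RNA genes, and for those of repeated sequence a 0 says nothing about the RNA. Of 19 genes of the mitochondrial genome 1 passed the minimum, AI1 with 11.7, 13.3 and 12.1, and COX1 had 3.90, 9.03 and 5.14, at a locus shared by 7 regions. Of 92 genes taken as Ty elements by product name, 27 passed the minimum. Both counts include GAG1, with 1238, 567 and 575, which the match of names caught. Its 687 bases are all sequence of its own, so it is not read as a Ty gene here. YNL054W-B, which shares its locus, led the others with 544, 598 and 462, and most of their sequence is repeated. TLC1, the telomerase RNA, had 163, 501 and 449, and was chosen after its values were seen.

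A further 1420 regions share their locus with another, and the program behind the table split their signal. Where a gene and an open reading frame without a reference entry face each other on opposite strands, 396 loci in all, the second held a median of 5.42% of the signal of the locus and exceeded the gene in 33. YAL037C-B had a mean of 45883 beside 25015 for CDC19, which is 64.7% of that locus, and YCR013C 23472 beside 31796 for PGK1, 42.5%. PGK1 itself had 8347, 52554 and 34486. YAL037C-B, YCR013C and PGK1 were chosen after their values were seen. The kit keeps the strand of the RNA, and whether the counting used it is not given in the sources used here, so the levels of CDC19, PGK1 and other genes at shared loci, such as SSB1, depend on that split.

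Genes with high signal per kb were set apart in several sequence features. Length is not independent of this ranking, since the signal is divided by exon length. The 100 protein-coding genes highest per kb, among 4969 detected and alone at their locus, had a median coding length of 456 bases against 1236 over all, a median GC content of 43.2% against 39.7%, and an intron in 20% against 4.37%. By gene symbol 38 of these 100 encode ribosomal proteins, beside 119 of the 4969. How far the features described here rest on that family was not tested. They used AGA for 78.3% of arginine codons against 47.9%, TTG for 61.9% of leucine codons against 28.2%, GGT for 84.6% of glycine codons against 45.8%, and CGG for 0% of arginine codons against 3.95%. Codon shares were pooled over the codons of each set. Across the 4969 genes log2 signal per kb and log2 length had a Pearson correlation of -0.41. Length enters both of these values, and the correlation is a description across genes that share libraries. The 282 genes with an intron, 89 of them ribosomal, held 7.84, 5.49 and 6.53% of signal.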

How the data were processed

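RNA of 3 wildtype libraries was read from a table of 9 libraries, and the 6 columns of the mutants were not used. By the study's methods, RNA was extracted with TRIzol and cleaned on RNeasy columns with DNase, and libraries were made with a stranded poly-A kit and sequenced as single 75-base reads. The authors aligned untrimmed reads with TopHat2 2.0.13 to the R64-1-1 assembly and made the table with Cuffnorm 2.2.1, after joining the read files of each library. The annotation release is not given in the sources used here. The deposited values are signal, that is estimated reads of a gene scaled for library size, and not counts. The design had foreseen counts, so limma was used on log2 values and no count model was run. No value column lacked a sample.

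Genes were kept at a signal of at least 10 in all 3 libraries, and the pseudocount was 1. Paralog pairs were reciprocal best BLAST 2.17.0 matches of proteins translated from the reference coding sequences, kept at a signal of at least 10 in all 3 libraries in either member. Their log2 ratio per kb of exon was tested against 0 within libraries with limma 3.58.1 in R 4.3.3, with Benjamini-Hochberg adjustment over 505 pairs, after the test was checked on simulated data. A pair was called at an adjusted P of at most 0.05 and at least 2-fold. As no source says that the replicates were separate cultures, p-values measure only the spread between these libraries, which may be technical. Differences between libraries were described at 2-fold with no test. Python 3.11.15, numpy 2.4.6, pandas 2.3.3 and matplotlib 3.10.9 were used. Counting error was taken from the reads that the smallest steps of the values give, and it covers counting only.

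The members and lists were chosen with earlier results of these data known. Genes were named by rule: SAM1 and SAM2, the 10 highest by mean and by mean per kb, up to 4 highest and the 2 of largest log2 SD in a list, the 10 largest and 5 smallest pair ratios with means of at least 50, listed families, the 5 largest differences each way between cultures at a mean of at least 50, the 5 steadiest at a mean of at least 500, and strain and mating-type markers. Further genes are marked as chosen after their values were seen. Alternatives were other scalings, pseudocounts and filters, genes alone at their locus, mostly unique sequence, and leaving out each replicate.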

Additional observations from a re-analysis of the deposited data

How the results depend on the processing

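No paired analysis was possible because there was a single group, and ratios of paralogs were already taken within libraries. The edgeR alternative was not run, since the deposited values are not counts. The count of genes past 2-fold between cultures 2 and 3 was 58, and it became 258 with no filter, 36 at a signal of at least 50 and 38 for genes alone at their locus, where fewer or more genes were tested. Scaled by the library total it was 53, of which 35 were higher and 18 lower in culture 3. At a signal of at least 50, 24 were higher and 12 lower. Among hand-written families 60 of 90 combinations were called. The share of ribosomal proteins was 16.6% per kb. Leaving out each replicate gave 226 to 298 called paralog pairs, 6009 to 6033 detected genes, a SAM2 to SAM1 log2 ratio of 1.35 to 1.80, and shares of 7.32 to 9.43% for ribosomal proteins, 4.65 to 7.07% for glycolysis and 4.43 to 6.99% for chaperones. SSA1 against SSA2 was no longer called without culture 2 (1.13, adjusted p = 0.0668 by limma) or culture 3 (1.12, adjusted p = 0.0731 by limma). An alternative chosen after seeing the data, division by the length of sequence that occurs once, gave 266 called pairs, all of them among the 268. Also chosen after seeing the data, the sum of both strands brought SSB2 against SSB1 to 0.39 on the log2 scale, and leaving RPP1 out of the ribosomal proteins gave 8.45%. Culture 2 had the fewest reads, which limits its low genes most.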
